A study of Homo sapiens with 12 samples.

Results

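Desmosomes are adhesive plaques that join neighbouring epithelial cells and anchor their intermediate filaments. Desmosomal cadherins, the desmogleins and desmocollins, bridge the gap between cells. Inside the cell, armadillo proteins (plakoglobin and the plakophilins) bind the cadherin tails, and desmoplakin links them to keratin or vimentin filaments. Kidney tubule epithelium carries desmosomes built mainly on desmoglein 2 and desmocollin 2. The 10 desmosome genes described here were taken by name: the plaque linker DSP (desmoplakin), the armadillo genes JUP (plakoglobin), PKP1, PKP2, PKP3 and PKP4, the cadherin genes DSG2, DSC2 and DSC3, and PERP, a membrane protein of desmosomes. All 10 were found once among the 58735 genes of the count table.

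The RNA came from 786-O, a human cell line from clear cell kidney cancer, in 12 polyA libraries, 3 per group. The groups were xenografts with BBOX1, xenografts with the empty vector, cultured cells with BBOX1 and cultured cells with the empty vector. BBOX1, which makes carnitine from its precursor gamma-butyrobetaine, was re-expressed from a lentiviral vector, and all cells had been selected with puromycin or neomycin. Xenografts grew in NOD SCID gamma mice aged 6 to 8 weeks on a regular diet, and cells grew in DMEM with serum; the study asked how BBOX1 relates to TBK1 and mTORC1 signalling. The labels name neither the vector's promoter nor whether a line was 1 clone, and whole tumours also hold host cells.

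Total counts ranged from 13729031 to 26758712 per library. BBOX1 averaged 1511 CPM (the count relative to library size, after edgeR's scaling) in BBOX1 xenografts and 0.606 CPM in empty-vector xenografts, 1080 CPM in BBOX1 cells and 0 counts in empty-vector cells, as labelled. All 6 markers of the renal carcinoma line, such as PAX8 and EPAS1, had counts in every group. BBOX1 xenograft replicate 1 stood apart: the chi-square of its counts per degree of freedom was 28.3 and 28.1 against replicates 2 and 3, which gave 6.49 between themselves, while cell libraries of a group gave 1.72 to 2.29. Nothing in the labels ties a replicate to its own culture dish or mouse. The p-values therefore cover the spread among these libraries, part or all of which may be technical.

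The starts of 4 genes are shown because their transcripts behaved differently: DSP was read almost only in empty-vector xenografts, DSG2 was abundant in every library, and PKP1 and JUP were near 0 in culture and abundant in xenografts. Each sequence runs 5′ to 3′ from 250 bases before to 50 after the RefSeq gene start (GRCh38.p14). Capitals mark CAGGTG or its reverse complement CACCTG, the E-box bound by ZEB and SNAI repressors. A motif match is a description of letters, not a site in use.
DSP, chr6:7541421-7541720, plus strand: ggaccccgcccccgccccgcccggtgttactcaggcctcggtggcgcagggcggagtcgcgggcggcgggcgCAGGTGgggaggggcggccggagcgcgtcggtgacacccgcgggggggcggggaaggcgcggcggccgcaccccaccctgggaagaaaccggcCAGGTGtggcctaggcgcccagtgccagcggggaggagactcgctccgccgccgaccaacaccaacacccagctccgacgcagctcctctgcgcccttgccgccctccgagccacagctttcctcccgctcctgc
DSG2, chr18:31497927-31498226, plus strand: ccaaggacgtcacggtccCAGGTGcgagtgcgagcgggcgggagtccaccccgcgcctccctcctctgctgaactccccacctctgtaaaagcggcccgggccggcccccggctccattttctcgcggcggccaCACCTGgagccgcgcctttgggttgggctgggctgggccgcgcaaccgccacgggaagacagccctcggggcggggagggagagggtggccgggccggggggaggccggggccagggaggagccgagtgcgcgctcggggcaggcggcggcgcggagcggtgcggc
PKP1, chr1:201283256-201283555, plus strand: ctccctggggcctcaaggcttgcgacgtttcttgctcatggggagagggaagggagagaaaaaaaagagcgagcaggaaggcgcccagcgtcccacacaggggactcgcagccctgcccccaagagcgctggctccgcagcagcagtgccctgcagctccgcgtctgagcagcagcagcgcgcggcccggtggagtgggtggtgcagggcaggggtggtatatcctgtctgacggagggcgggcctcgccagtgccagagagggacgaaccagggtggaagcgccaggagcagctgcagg
JUP, chr17:41786662-41786961, minus strand: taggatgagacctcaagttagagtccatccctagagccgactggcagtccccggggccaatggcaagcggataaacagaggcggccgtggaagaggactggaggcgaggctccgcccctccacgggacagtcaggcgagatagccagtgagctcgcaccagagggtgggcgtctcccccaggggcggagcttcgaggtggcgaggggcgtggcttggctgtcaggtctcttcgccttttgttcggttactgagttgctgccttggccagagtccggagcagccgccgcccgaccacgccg
The E-box was searched on both strands in the windows of 35116 promoters, and 20.6% held at least 1. DSP and DSG2 held 2 matches each, and the PKP1 and JUP windows printed above held 0, while a second RefSeq start of JUP, not shown, held 2. The G and C content of these windows was 77.0% for DSP, 76.7% for DSG2, 67.3% for PKP1 and 65.3% for JUP, against a median of 58.7% over all promoters. ACGTG, the core of hypoxia response elements, had no match in the 4 windows and was present in 21.4% of all promoters. Of the DSC2 windows, not shown, 1 held 1 E-box and another held 3 ACGTG matches. Those of PKP4, DSC3 and PERP held neither motif. By symbol 8 of the 10 genes matched the promoter table, all but PKP2 and PKP3.

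DSP (ENSG00000096696, chr6:7541575-7586717, plus strand) had the widest spread of levels of the 10 genes. It was read 2, 2 and 0 times in the BBOX1 xenografts and 875, 601 and 449 times in the empty-vector xenografts. BBOX1 cells gave 9, 10 and 6 counts and empty-vector cells 7, 5 and 2. As CPM these were 0.137, 0.137 and 0 in BBOX1 xenografts, against 58.3, 32.8 and 26.5 in empty-vector xenografts. The 3 empty-vector xenografts were therefore high and the other 9 libraries were all low. Per kilobase of exon, the scale on which genes can be set side by side, DSP stood at 0.00905 ± 0.00784 CPM in BBOX1 xenografts and 3.88 ± 1.67 CPM in empty-vector xenografts (SD, n = 3 each).

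The xenografts of the 2 vectors were compared first. DSP fell by 8.65 on the log2 scale with BBOX1 (SE 0.52, edgeR quasi-likelihood test with Benjamini-Hochberg adjustment over all tested genes, adjusted p = 8.98e-06). From the summed counts, 4 with BBOX1 and 1925 with the empty vector, the empty-vector level was 429 times the BBOX1 level, with a 95% exact binomial interval of 167 to 1580 that covers counting error only. The desmocollin gene DSC2 (chr18:31058840-31102522, minus strand), partner of desmoglein 2 in simple epithelia, fell by 1.15 on the log2 scale (SE 0.27, edgeR adjusted p = 0.0357). Its levels were 28.7, 13.1 and 14.7 CPM in BBOX1 xenografts and 47.4, 46.2 and 32.4 CPM in empty-vector xenografts. The groups did not overlap, and BBOX1 replicate 1 was the highest of its group. Here and below, lack of overlap is a description, given without the share of all genes that show it. Of the 9 desmosome genes with enough counts for the test, 2 were lower with BBOX1 and 0 higher, against 3.63% of 16126 tested genes that were lower and 1.91% that were higher. In either direction 5.54% passed. The median log2 fold change was -0.40 over the 9 genes and 0.02 over all tested genes. At an unadjusted p under 0.05, 5 of the 9 passed, JUP alone among them being higher, and DESeq2 called 4 lower and 0 higher. The shares above are of edgeR calls. None is given for unadjusted p or for DESeq2, which called more genes in all, so these counts are descriptions. Among the cell type markers, 1 of 3 tested fibroblast markers, LUM, which encodes the matrix proteoglycan lumican, was also lower. It had 0.754, 3.29 and 3.89 CPM in BBOX1 xenografts and 17.0, 30.8 and 16.3 CPM in empty-vector xenografts, without overlap (log2 -3.001, SE 0.43, edgeR adjusted p = 0.00372). COL1A1 and COL3A1, the other tested fibroblast markers, did not pass (log2 0.36 and -0.47, edgeR adjusted p = 0.483 and 0.0999). Of 6 tested renal carcinoma markers CA12 was lower. Whether the mix of cell types had a part in the desmosome values was not tested.

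Removing single libraries changed these calls unequally. DSP passed without any 1 of the 6 xenograft libraries and under every other alternative run (log2 -9.05 to -8.07, edgeR or DESeq2 adjusted p of 3.64e-150 to 0.000275). The DSC2 call held without BBOX1 replicate 1 (log2 -1.59, adjusted p = 0.000196) and was lost on removing any other single library (log2 -1.31 to -0.95, edgeR adjusted p of 0.0559 to 0.154), and on total counts in place of the TMM scaling (adjusted p = 0.0700). Without BBOX1 replicate 1, DSG2, PERP and PKP4 were also lower with BBOX1, at log2 -0.71, -0.51 and -0.32 (edgeR adjusted p = 0.000766, 0.00581 and 0.0436). That run called 4301 genes in all, against 894 with all libraries. The added calls thus came with a rise over all genes and are not particular to desmosome genes.

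The other desmosome genes missed the threshold in xenografts with all libraries. Where their groups did not overlap, this is a description, as the share of all genes without overlap is not given. DSG2 (chr18:31498043-31549008, plus strand), the desmoglein of simple epithelia, had 198, 108 and 119 CPM in BBOX1 xenografts and 178, 199 and 185 CPM in empty-vector xenografts (log2 -0.40, SE 0.20, edgeR adjusted p = 0.239). The first BBOX1 library lay among the empty-vector libraries and the other two lay below them. PERP (chr6:138088505-138107511, minus strand), a target of p53 and p63 needed for stable desmosomes in mouse skin, had 83.9, 68.1 and 71.2 CPM in BBOX1 xenografts and 92.8, 95.04 and 109.8 CPM in empty-vector xenografts, without overlap (log2 -0.41, SE 0.13, adjusted p = 0.080). PKP2 (chr12:32790745-32896840, minus strand), the plakophilin of heart and simple epithelia, had 0.891, 1.44 and 0.191 CPM in BBOX1 xenografts, against 3.06, 2.94 and 2.01 CPM in empty-vector xenografts. The groups did not overlap, the counts were low (13, 21 and 3 against 46, 54 and 34), and the log2 fold change was -1.66 (SE 0.53, edgeR adjusted p = 0.0853). DESeq2 and a fit of all 12 libraries put PKP2 and PERP past the threshold (adjusted p = 0.0276 and 0.0394 in DESeq2).

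JUP (chr17:41754604-41786931, minus strand) encodes plakoglobin, the armadillo protein shared with adherens junctions. It had 50.1, 47.7 and 34.0 CPM in BBOX1 xenografts and 38.0, 28.8 and 30.1 CPM in empty-vector xenografts, with 1 BBOX1 library inside the empty-vector range (log2 0.45, SE 0.17, edgeR adjusted p = 0.134). PKP1 (chr1:201283452-201332993, plus strand), a plakophilin best known from the upper layers of skin, had a log2 fold change of 0.12 (SE 0.29), PKP3 (chr11:392614-404908, plus strand), found in most desmosome-bearing epithelia, of -0.20 (SE 0.11), and PKP4 (chr2:158456964-158682879, plus strand), a relative found at several kinds of junction, of -0.22 (SE 0.13). DSC3 (chr18:30990008-31042815, minus strand), a desmocollin of stratified epithelia, was not tested, with 5 counts over BBOX1 xenografts, 3 over empty-vector xenografts and 0 in each cell library. A count of 0 over the 3 libraries of a group allows up to 3 counts at this depth.

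**Figure D1:**
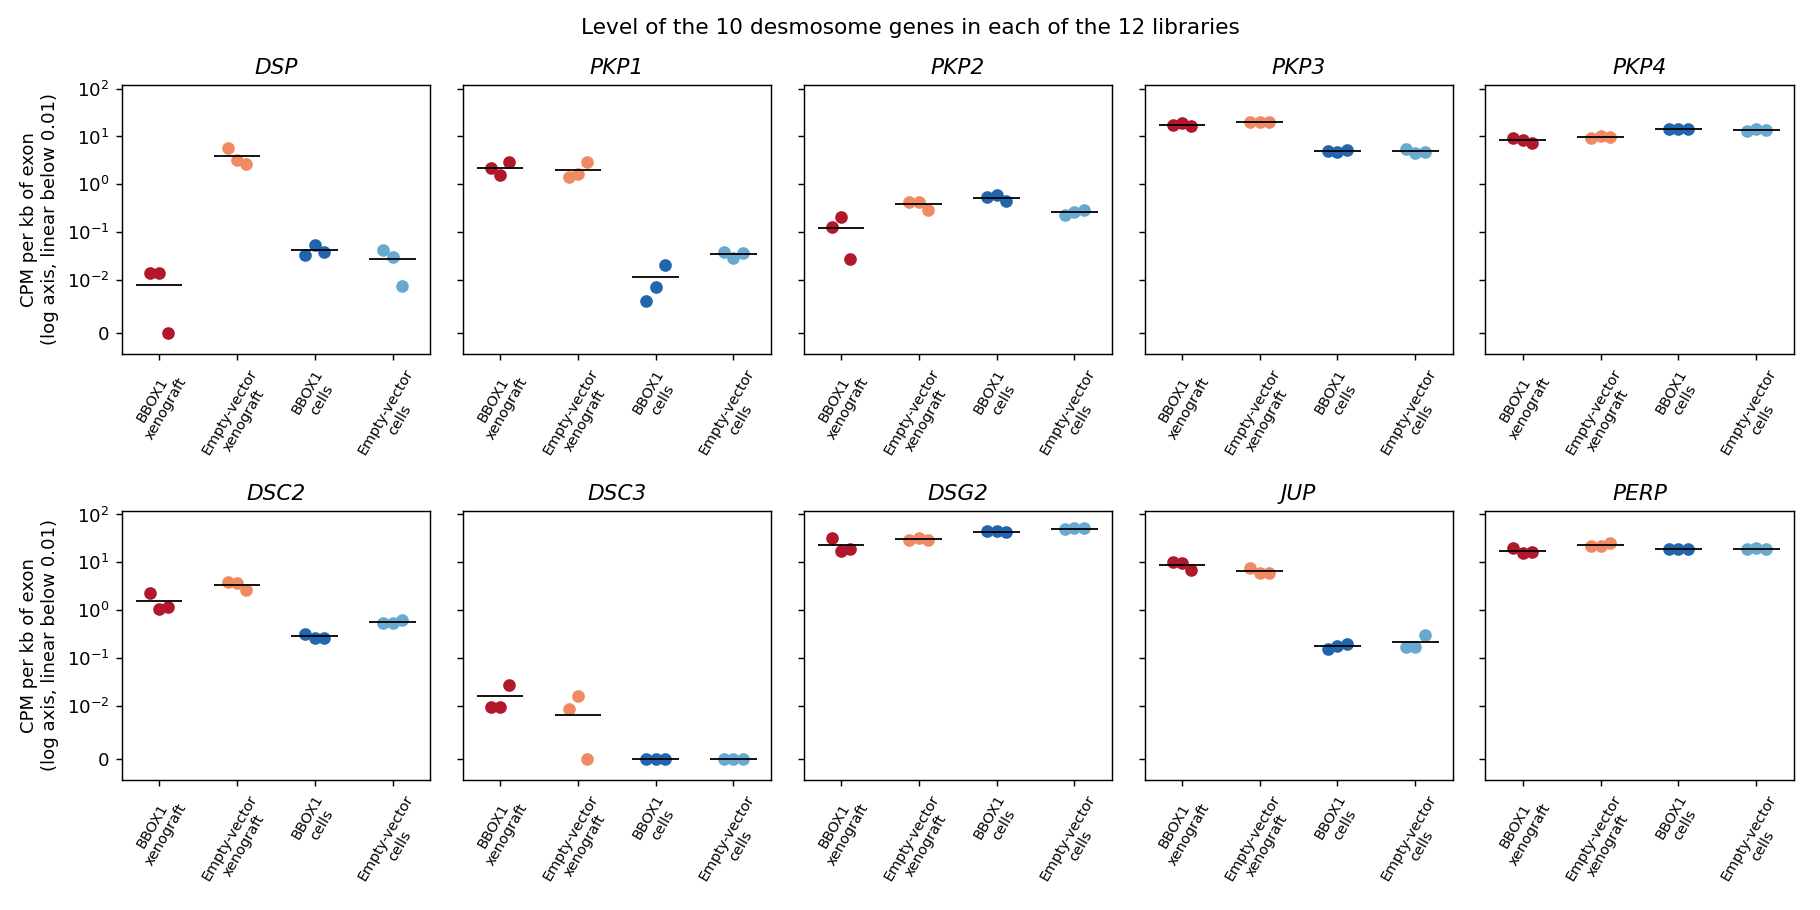
Level of each desmosome gene in CPM per kilobase of exon (log axis, linear below 0.01) in each library, with a line at the group mean of 3. DSP is high in the 3 empty-vector xenografts and near 0 in the other 9 libraries, and PKP1 and JUP separate xenografts from cells.

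In cultured cells 3 desmosome genes differed between the vectors: PKP2 was higher with BBOX1, and DSC2 and DSG2 were lower. PKP2 had 3.78, 4.12 and 3.14 CPM in BBOX1 cells and 1.61, 1.86 and 2.05 CPM in empty-vector cells, so every BBOX1 library lay above every empty-vector library (log2 0.99, SE 0.21, edgeR adjusted p = 0.00095). DSC2 had 4.01, 3.31 and 3.27 CPM in BBOX1 cells and 6.73, 6.71 and 7.53 CPM in empty-vector cells, again without overlap, at levels below those of the xenografts (log2 -0.97, SE 0.15, edgeR adjusted p = 1.44e-05). DSG2 had 275, 277 and 261 CPM in BBOX1 cells and 300.3, 319 and 316 CPM in empty-vector cells, a small shift without overlap (log2 -0.20, SE 0.03, edgeR adjusted p = 3.34e-06). Thus 1 of 7 tested desmosome genes rose and 2 fell, against 8.53% and 7.86% of 14960 tested genes (16.4% in either direction), with medians of -0.005 over the 7 genes and -0.001 over all tested genes. The 3 calls held without any 1 of the 6 libraries and were lost when xenografts shared the estimate of the spread (adjusted p = 0.644, 0.578 and 0.883). DESeq2 called DSC2 and DSG2 and gave PKP2 no adjusted p.

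The remaining desmosome genes did not pass in cultured cells. PERP averaged 82.2 ± 0.541 CPM in BBOX1 cells and 82.5 ± 3.64 CPM in empty-vector cells, and PKP3 18.8 ± 0.871 and 18.8 ± 1.94 CPM (SD, n = 3 each). PKP4 had a log2 fold change of 0.04 (SE 0.04). JUP, at 0.742 to 0.943 CPM with BBOX1 and 0.834 to 1.47 CPM with the empty vector, had a log2 of -0.35 (SE 0.36, edgeR adjusted p = 0.573). DSP and PKP1 had too few counts for the filter. With no filter DSP had a log2 of 0.67 (edgeR adjusted p = 0.694) and PKP1 of -1.58 (adjusted p = 0.545), from 4 counts over BBOX1 cells and 12 over empty-vector cells.

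**Figure D2:**
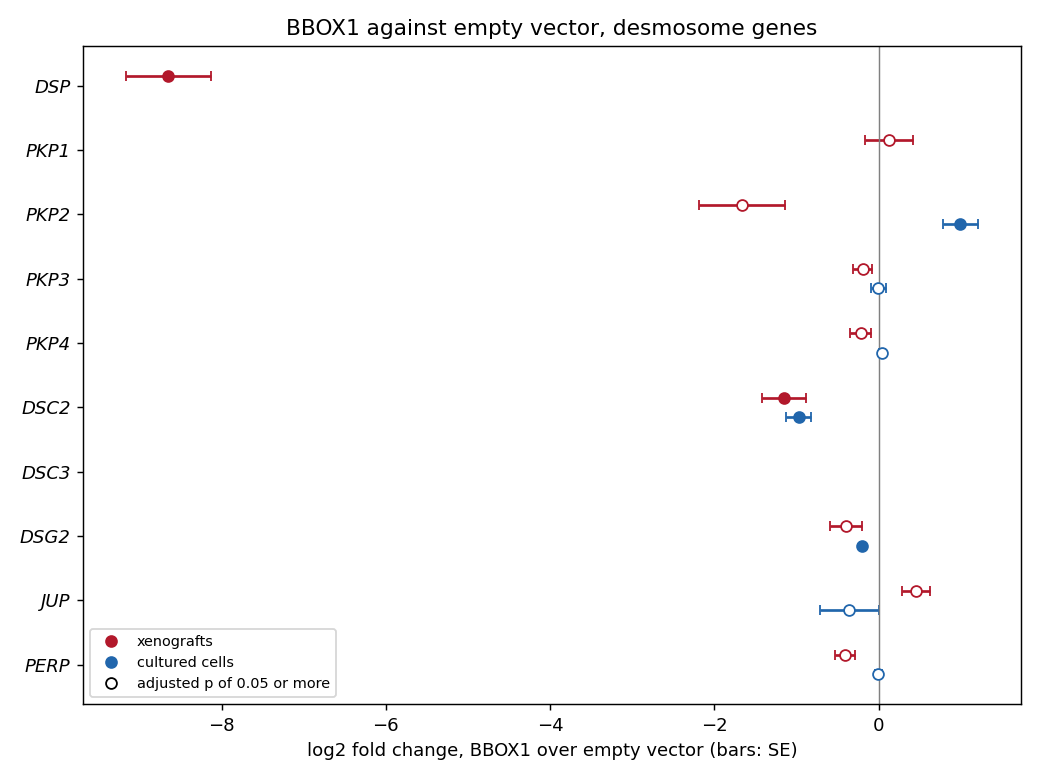
Log2 fold change with its SE of each tested desmosome gene, BBOX1 over empty vector, in xenografts and in cultured cells (edgeR; open points did not pass). DSP in xenografts lies at -8.65, DSC2 is lower in both settings, and PKP2 lies at 0.99 in cells and at -1.66 in xenografts.

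Whether the BBOX1 effect differed between settings was tested in 1 fit of all 12 libraries. The effect on DSP was lower in xenografts than in cells (difference of log2 fold changes -9.35, SE 1.01, edgeR adjusted p = 0.000254). With 25 counts over BBOX1 cells and 14 over empty-vector cells, DSP was too low for a test in cells alone. For PKP2 the difference was -2.67 (SE 0.55, edgeR adjusted p = 0.0152): it was higher with BBOX1 in cells, and in xenografts its fitted value was lower but did not pass. Of 9 tested desmosome genes these 2 passed, both lower, against 3.26% of 16927 genes lower and 1.93% higher (5.19% in either direction). Both passed under each of 19 alternatives, with adjusted p up to 0.0129 for DSP and 0.0482 for PKP2. DSC2, lower with BBOX1 in both settings, had a difference of -0.18 (SE 0.36, edgeR adjusted p = 0.807), and JUP of 0.82 (SE 0.37, adjusted p = 0.195). The PERP difference of -0.41 (SE 0.13, adjusted p = 0.0763) passed in DESeq2 and in limma voom with 1 variance weight per group (adjusted p = 0.0375 and 0.0361). Without BBOX1 xenograft replicate 1, PKP4, DSG2 and PERP also passed (log2 -0.38, -0.53 and -0.52). Over all genes that run called 4182, against 878 with all libraries, so the share above does not apply to it.

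The genes around DSP were read to see how far the difference reached along chromosome 6. Within 500 kb lay 25 other annotated genes, of which 8 had enough counts in xenografts. Between BBOX1 and empty-vector xenografts 0 passed in edgeR and 1 in DESeq2, against 5.54% of all tested genes in edgeR. With 8 genes tested, 0 cannot be told from that share. SSR1 alone had an unadjusted edgeR p under 0.05 (log2 -0.37, SE 0.12, adjusted p = 0.0878). In cells 2 of 8 passed, against 16.4% of all tested genes: RREB1 and SNRNP48 (log2 -0.145 and -0.229, edgeR adjusted p = 0.0397 and 0.0275). SNRNP48, an RNA splicing gene that starts 3482 bases beyond the end of DSP on the same strand, averaged 14.3 CPM in BBOX1 xenografts and 15.6 CPM in empty-vector xenografts (log2 -0.12, SE 0.15, edgeR adjusted p = 0.652). On the other side the nearest tested gene was RIOK1, an atypical kinase of ribosome maturation 123538 bases away, with a log2 of 0.08 (SE 0.21). The largest value among the neighbours was that of TXNDC5, a chaperone of the endoplasmic reticulum, at -0.77 (SE 0.37, adjusted p = 0.214). AL031058.1 (ENSG00000261189), an antisense RNA gene on the minus strand, starts 237 bases upstream of the DSP start and runs away from it. It was named after its counts were seen. It had 6, 3 and 3 counts in the empty-vector xenografts and 0 in the other 9 libraries, too few for the test.

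**Figure D3:**
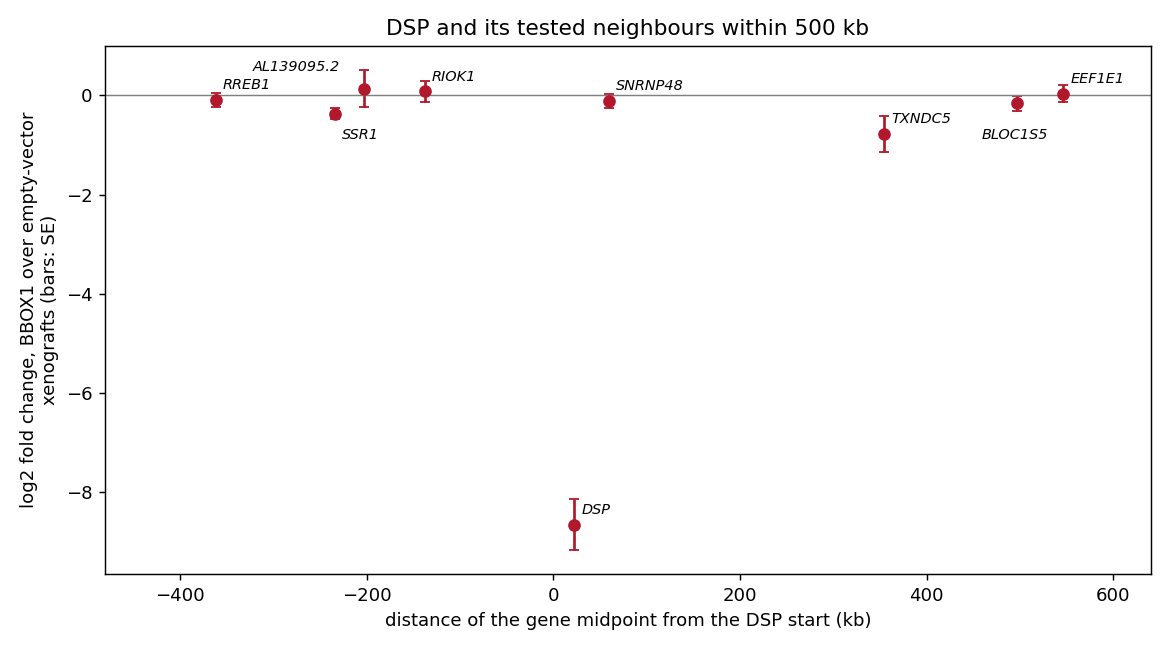
Log2 fold change with its SE, BBOX1 over empty-vector xenografts, of DSP and the 8 tested genes within 500 kb, by distance of each gene's midpoint from the DSP start in kb. DSP lies at -8.65 and its neighbours between -0.77 and 0.14.

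Likeness to DSP was measured over the 12 libraries as the root mean square difference of log2 CPM, each gene centred on its own mean, among 13389 other protein-coding genes. The nearest was TMEM176A, a transmembrane protein gene on chromosome 7 (0.84 log2 units), followed by ST8SIA2, a polysialyltransferase gene on chromosome 15 (0.92). SLC38A3, a glutamine transporter gene on chromosome 3 (1.197), EFNA2, which encodes an ephrin ligand (chromosome 19, 1.33), and OBP2A, which encodes an odorant-binding protein (chromosome 9, 1.38), came next. Their mean levels were 0.0457, 0.0229, 0.295, 0.114 and 0.229 CPM in BBOX1 xenografts, in that order. In empty-vector xenografts they were 11, 7, 22.1, 3.56 and 5.46 CPM, and in both cell groups they were at most 0.058 CPM. The measure chose these genes for this pattern, so it is a description. None of the 5 lies on chromosome 6.

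Xenografts were next compared with cultured cells of the same vector. JUP and PKP1 were far higher in xenografts. JUP had 50.1, 47.7 and 34.0 CPM in BBOX1 xenografts and 0.742, 0.867 and 0.943 CPM in BBOX1 cells (log2 5.72, SE 0.22, edgeR adjusted p = 3.07e-07). With the empty vector it had 38.0, 28.8 and 30.1 CPM in xenografts and 0.834, 0.839 and 1.47 CPM in cells (log2 4.90, SE 0.20, adjusted p = 7.11e-10). PKP1 had 13.4, 9.52 and 17.9 CPM in BBOX1 xenografts from 196, 139 and 280 counts, against 1, 1 and 2 counts in BBOX1 cells (log2 7.57, SE 0.44, edgeR adjusted p = 2.27e-06). With the empty vector it had 132, 189 and 314 counts in xenografts and 4, 3 and 5 counts in cells (log2 5.84, SE 0.39, adjusted p = 5.08e-08). All xenografts were thus high and all cell libraries low for both genes, whichever vector they carried.

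Of the other genes, PKP3 and DSC2 were higher in xenografts with both vectors and PKP4 and DSG2 lower. PKP3 was higher in xenografts with BBOX1 (log2 1.84, SE 0.10) and with the empty vector (2.03, SE 0.08), and so was DSC2 (2.42, SE 0.31, and 2.59, SE 0.15). PKP4 was lower in xenografts (log2 -0.73, SE 0.11, with BBOX1, and -0.47, SE 0.06, with the empty vector), as was DSG2 (-0.92, SE 0.20, and -0.72, SE 0.06). DSP rose in xenografts with the empty vector (log2 7.25, SE 0.43, edgeR adjusted p = 1.71e-08) and was not tested between BBOX1 xenografts and BBOX1 cells, with 4 and 25 counts. PKP2 fell in xenografts with BBOX1 (log2 -2.12, SE 0.48, edgeR adjusted p = 0.00355) and had a log2 of 0.54 with the empty vector (SE 0.27, adjusted p = 0.0946). PERP had a log2 of -0.13 with BBOX1 (SE 0.10) and rose slightly with the empty vector (0.28, SE 0.08, edgeR adjusted p = 0.00534).

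Passing was common in these comparisons. With BBOX1 4 of 8 tested desmosome genes were higher in xenografts and 3 lower, against 36.1% and 32.1% of 15906 genes (68.2% in either direction). With the empty vector 6 of 9 were higher and 2 lower, against 35.5% and 33.1% of 15914 genes (68.6% in either direction). The median log2 fold change was 0.86 over the desmosome genes and 0.07 over all tested genes with BBOX1. With the empty vector these medians were 2.03 and 0.04. In such bulk samples fewer cells of a type and less RNA per cell cannot be told apart.

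Host tissue was looked at beside these values, because mouse reads can be counted on human genes. Of 11 keratinocyte markers, LOR, IVL and KRTDAP had 0 counts in both xenograft groups. KRT5 and KRT14 reached at most 0.0727 CPM as a group mean. Of the 3 tested between settings, KRT10 was higher in xenografts with BBOX1 and with the empty vector (log2 0.41 and 0.40 in edgeR). FLG was lower with both (-2.13 and -2.05), and KRT15 did not pass. The summed level of the list was 79.3 to 95.6 CPM in BBOX1 xenografts, 74.4 to 90.5 CPM in empty-vector xenografts, 123 to 126 CPM in BBOX1 cells and 108 to 117 CPM in empty-vector cells, most of it KRT10 and FLG. Fibroblast markers summed to 250 to 369 CPM in BBOX1 xenografts and 242 to 431 CPM in empty-vector xenografts, against 8.94 to 10.2 CPM and 9.41 to 10.4 CPM in the matching cells. COL1A1 and COL3A1 held most of that sum. PDGFRB was lower in xenografts with the empty vector (log2 -1.82, edgeR adjusted p = 0.00574) and did not pass with BBOX1 (log2 -1.01). LUM averaged 2.65 CPM in BBOX1 xenografts and 21.4 CPM in empty-vector xenografts, against 1.74 and 1.48 CPM in the matching cells, and its BBOX1 effect differed between settings (log2 -3.23, edgeR adjusted p = 0.00969). DCN and COL1A2 were at 0.141 CPM or lower in every group. Endothelial markers summed to at most 2.20 CPM and leukocyte markers to at most 6.46 CPM in any library. Muscle markers summed to at most 3.36 CPM and adipocyte markers to 2.87 CPM. The leukocyte marker ITGAM was higher in xenografts with BBOX1 and with the empty vector (log2 3.11 and 4.62 in edgeR). The part of host RNA in the desmosome values was not tested.

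**Figure D4:**
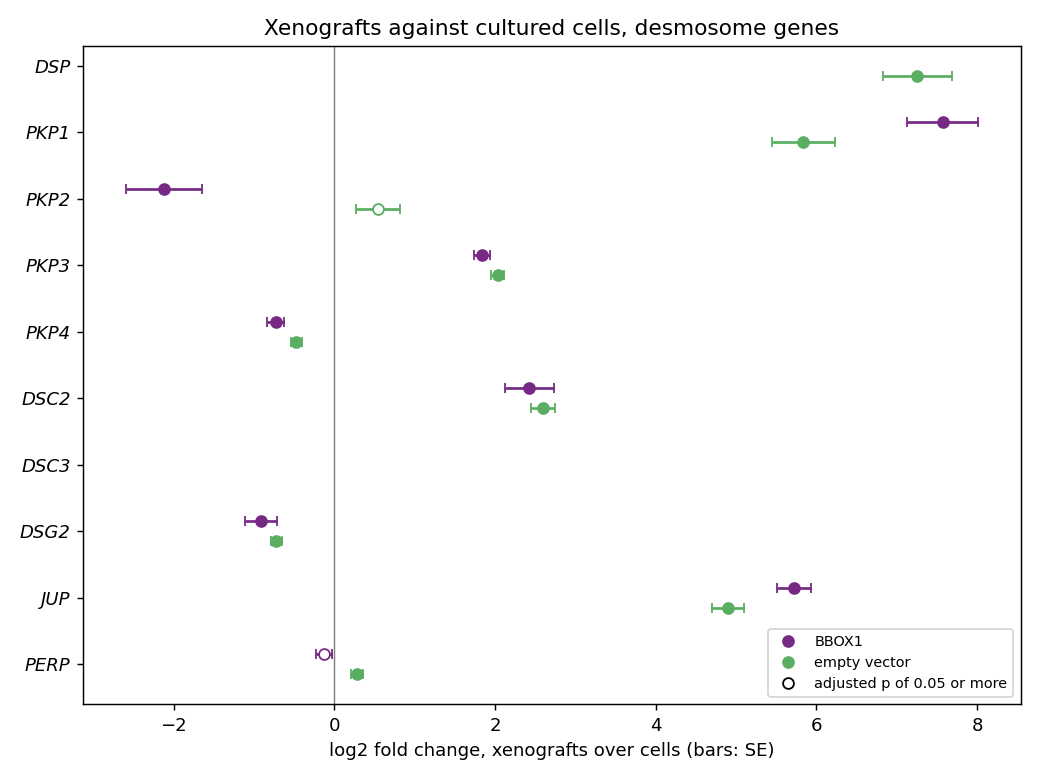
Log2 fold change with its SE of each tested desmosome gene, xenografts over cultured cells, with BBOX1 and with the empty vector (edgeR; open points did not pass). JUP, PKP1, PKP3 and DSC2 lie above 0 with either vector, DSG2 and PKP4 below 0, and PKP2 at -2.12 with BBOX1.

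Per kilobase of exon the order of the 10 genes changed with the setting. DSG2 had the highest mean in every group, though within its spread of PKP3 and PERP in BBOX1 xenografts, at 22.9 ± 7.87 CPM per kilobase in BBOX1 xenografts, 30.2 ± 1.74 in empty-vector xenografts, 43.8 ± 1.49 in BBOX1 cells and 50.4 ± 1.61 in empty-vector cells (SD, n = 3 each). In both cell groups PERP, PKP4 and PKP3 followed, at 19.2, 14.1 and 4.96 CPM per kilobase in BBOX1 cells, against 19.2, 13.7 and 4.97 in empty-vector cells. Every other gene of the cells was under 0.6. In BBOX1 xenografts PKP3 (17.5 ± 1.44) and PERP (17.3 ± 1.95) came next without differing beyond their spread, then JUP (8.89 ± 1.75) and PKP4 (8.37 ± 1.15), likewise within their spread. In empty-vector xenografts PERP (23.1 ± 2.16) and PKP3 (20.1 ± 0.372) were followed by PKP4 (9.79 ± 0.449), JUP (6.53 ± 1.00), DSP (3.88 ± 1.67), DSC2 (3.36 ± 0.665) and PKP1 (2.02 ± 0.843). DSP and DSC2 did not differ beyond their spread there.

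The make-up of the gene families shifted accordingly. Of the summed plakophilin level per kilobase, PKP3 held 62.1 ± 2.93% in BBOX1 xenografts and 62.3 ± 1.38% in empty-vector xenografts, against 25.3 ± 1.05% in BBOX1 cells and 26.2 ± 2.92% in empty-vector cells (SD, n = 3 each). PKP4 held 29.6 ± 2.80% and 30.3 ± 1.67% of the plakophilins in BBOX1 and empty-vector xenografts, and 72.0 ± 0.729% and 72.2 ± 2.83% in BBOX1 and empty-vector cells. PKP1 supplied 7.88 ± 2.87% and 6.20 ± 2.39% in the 2 xenograft groups and at most 0.204% in any cell library. Among the cadherins DSG2, DSC2 and DSC3, DSC2 held 6.04 ± 0.589% in BBOX1 xenografts and 9.99 ± 1.84% in empty-vector xenografts, 0.640 ± 0.067% in BBOX1 cells and 1.10 ± 0.0686% in empty-vector cells. Within each setting the BBOX1 libraries had the lower DSC2 share, with no overlap. The summed level of all 10 genes was 92.9, 73.4 and 70.2 CPM per kilobase in BBOX1 xenografts and 99.03, 99.2 and 100.1 in empty-vector xenografts, and 83.9, 83.9 and 81.4 in BBOX1 cells and 86.7, 91.7 and 89.7 in empty-vector cells. These sums are descriptions and were not tested.

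**Figure D5:**
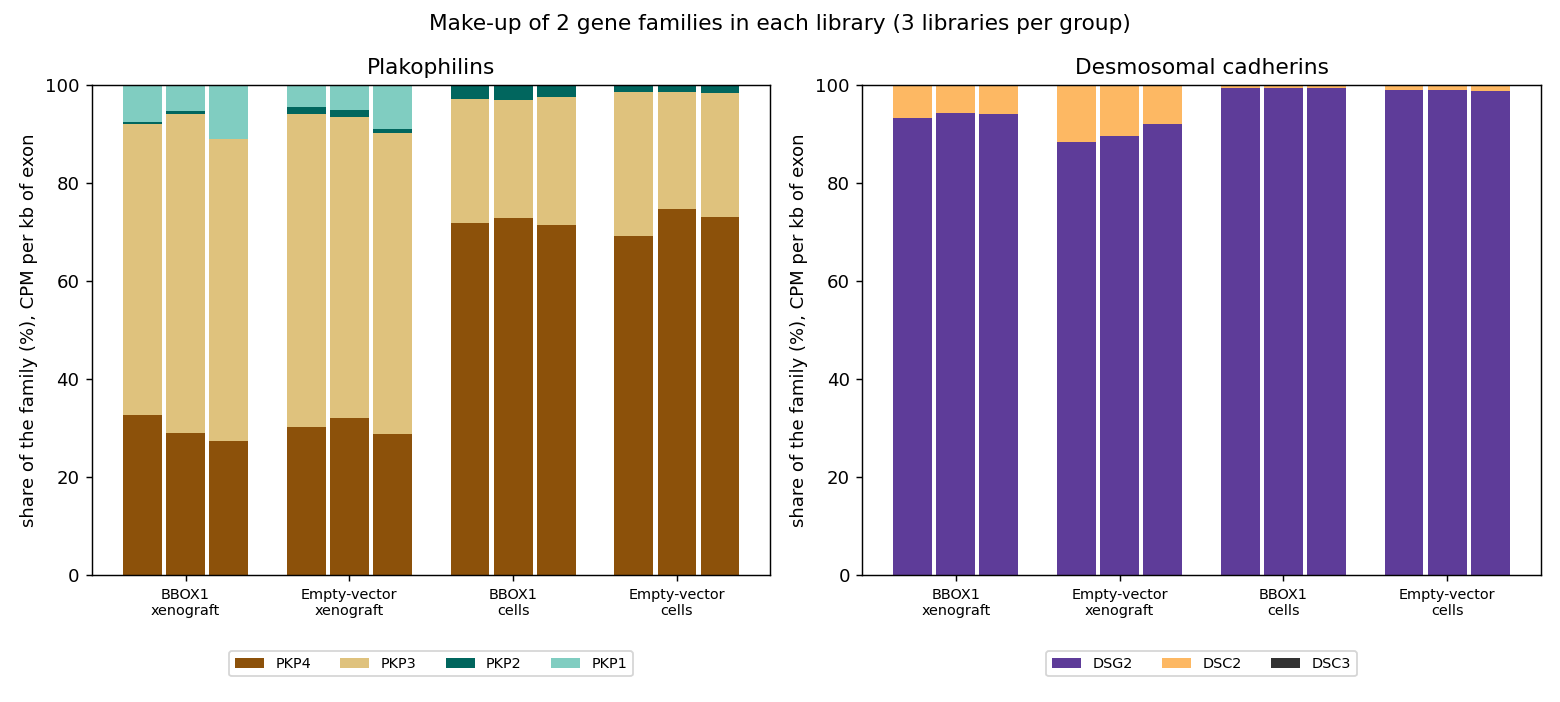
Share (%) of the summed CPM per kilobase held by each plakophilin and by each of the desmosomal cadherins DSG2, DSC2 and DSC3 in each library, 3 bars per group. PKP4 is the main plakophilin of the cells and PKP3 that of the xenografts, and DSC2 takes a larger share of the cadherins in xenografts.

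Other genes of the desmosome included some near 0 and some abundant. The epidermal cadherin genes DSC1, DSG1, DSG3 and DSG4 averaged at most 0.183 CPM in any group and were not tested. EVPL and PPL, the plakins envoplakin and periplakin, averaged 49.9 and 4.28 CPM in BBOX1 xenografts and 43.4 and 3.71 CPM in empty-vector xenografts. Among 10 such genes 5 were tested in xenografts and 0 passed with BBOX1 in edgeR, 0 of them at an unadjusted p under 0.05 and 0 in DESeq2. Of all tested genes 5.54% passed there in edgeR, and with 5 genes tested 0 cannot be told from that share. In cells 1 of 4 fell, PNN, a nuclear speckle protein first described at desmosomes (log2 -0.13, SE 0.04, edgeR adjusted p = 0.0135), against 7.86% of all tested genes. PPL was higher in xenografts with BBOX1 (log2 1.87) and with the empty vector (0.83). KAZN, which encodes the desmosome-associated kazrin, was lower (-0.93 and -1.20). With the empty vector CTNNA3 was also higher (2.39) and PNN lower (-0.53). Of all tested genes 68.2% passed between settings with BBOX1 and 68.6% with the empty vector.

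The filaments that desmoplakin binds were present in all groups. VIM, which encodes vimentin, averaged 3835 CPM in BBOX1 xenografts, 3704 CPM in empty-vector xenografts, 1732 CPM in BBOX1 cells and 1749 CPM in empty-vector cells. The simple-epithelial keratin genes KRT8 and KRT18 stood at 843 and 185 CPM in BBOX1 xenografts and at 949 and 191 CPM in empty-vector xenografts. Of 11 filament genes 7 were tested in xenografts, where KRT7 rose with BBOX1 (log2 1.68, edgeR adjusted p = 0.0282) and KRT17 fell (-1.76, edgeR adjusted p = 0.0171). So 1 of 7 rose and 1 fell, against 1.91% higher and 3.63% lower among all tested genes. In cells KRT19 fell slightly (log2 -0.23, edgeR adjusted p = 1.97e-06). It was the 1 of 6 tested that passed, near the 16.4% of all tested genes in either direction. Between settings KRT17, KRT18, KRT19 and VIM were higher in xenografts with either vector and KRT80 and KRT81 lower.

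Neighbouring junction types were counted in the same fits. The shares of all tested genes given here are of edgeR calls, and none is given for unadjusted p or DESeq2. Of 13 tested adherens junction genes 2 fell with BBOX1 in xenografts and 0 rose, against 3.63% and 1.91% of all tested genes (5 at an unadjusted p under 0.05, and 0 higher and 3 lower in DESeq2). They were the cadherins CDH3 (log2 -4.43, SE 0.73) and CDH11 (-1.36, SE 0.23). CDH3, which encodes P-cadherin, averaged 0.0441 CPM in BBOX1 xenografts and 1.13 CPM in empty-vector xenografts. In cells 7 of 11 fell and 1 rose, against 7.86% and 8.53% of all tested genes, with CDH11 at -0.74, CDH6 at -0.31 and the catenin gene CTNND1 at -0.10. Of 9 hemidesmosome genes LAMB3, a chain of laminin 332, fell with BBOX1 in xenografts (log2 -1.32, SE 0.16, edgeR adjusted p = 0.00131) and 0 rose, against the xenograft shares above (4 at an unadjusted p under 0.05, and 0 higher and 2 lower in DESeq2). In cells 5 of the 9 fell, among them the integrin subunit ITGA6 (-0.41) and the plakin DST (-0.34), and 0 rose, against the same shares of all tested genes in cells (5 at an unadjusted p under 0.05, and 0 higher and 4 lower in DESeq2). E-cadherin (CDH1) averaged 16.6 CPM in BBOX1 xenografts and 9.99 CPM in empty-vector xenografts (log2 0.74, edgeR adjusted p = 0.151), against 0.171 CPM in BBOX1 cells and 0.0894 CPM in empty-vector cells. Most adherens junction genes went the other way between settings. With BBOX1 8 of 12 tested were lower in xenografts and 2 higher, against 32.1% and 36.1% of all tested genes. With the empty vector 7 of 13 were lower and 3 higher, against 33.1% and 35.5%.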

How the data were processed

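Raw read counts per gene were used as deposited by the authors. The submitters' processing notes list fastp, STAR, featureCounts, DESeq2 and the build hg38, with no versions. The library kit, NEBNext Ultra per the labels' protocols, does not mark strand. Neither the annotation nor a step against mouse reads is stated. All 58735 gene IDs and names matched GENCODE release 29, whose coordinates and exon lengths were used. Of the 10 genes, PKP4 and DSG2 share 4.39% and 2.76% of their exon bases with antisense genes, which had 152 and 100 counts over 12 libraries.

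The tests used edgeR 4.0.16 (R 4.3.3). Genes passed filterByExpr with a minimum count of 10, libraries were scaled by TMM, and quasi-likelihood p-values were adjusted over all tested genes by Benjamini and Hochberg's method (threshold 0.05). Each comparison was fitted on its own 6 libraries, and the difference between settings on all 12. The fits were tested on simulated counts. SE is the absolute log2 fold change over the square root of F. CPM use 1 TMM scaling of all 12 libraries. The share of all genes whose groups do not overlap is not given, so lack of overlap is a description. Nor are the shares at an unadjusted p under 0.05 or of DESeq2 calls, so those counts are descriptions too. Alternatives included DESeq2 1.42.0, other scalings and filters, a replicate block, leaving out each library, and limma 3.58.1 voom, added after the data were seen. The 10 genes, the lists (5 of junction genes and regulators, 7 of cell types) and the naming rule were chosen with earlier results of these data known; the motifs were chosen after the values were seen. The rule names the 10 genes, list members past the threshold, neighbours of the gene of widest range and its 5 most alike genes; the text prints a part. No same-numbered pair of libraries correlated above 0.021 in cells or 0.037 in xenografts in its deviation from the group mean, so numbers were not taken as pairs.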

Additional observations from a re-analysis of the deposited data

Results flagged for a closer look

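The BBOX1 effect on 2 of 9 tested desmosome genes differed between xenografts and cells by the test of the difference itself. Of all tested genes 5.19% passed that test. For DSP the difference was -9.35 on the log2 scale (edgeR adjusted p = 0.000254), with DSP lower in 3 of 3 BBOX1 xenografts than in any empty-vector xenograft. DSP had 25 counts over BBOX1 cells and 14 over empty-vector cells, too few for a test in cells alone. Its difference thus rests mostly on the xenografts. For PKP2 the difference was -2.67 (edgeR adjusted p = 0.0152). For this gene 3 of 3 BBOX1 cell libraries lay above all empty-vector cells, and 3 of 3 BBOX1 xenografts below all empty-vector xenografts. In xenografts alone the PKP2 effect did not pass (edgeR adjusted p = 0.0853), with 13, 21 and 3 counts in the BBOX1 xenografts.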

How the results depend on the processing

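Over all alternatives 581 of 614 recomputed values of single desmosome genes kept their direction and side of the threshold, 9 lost their call, 17 gained one and 7 changed sign without passing. The sign changes were those of PKP3 in cells (log2 -0.0565 to 0.0851 over left-out libraries), PERP in cells (-0.0217 to 0.0297), PKP1 in xenografts (-0.1225 to 0.5116) and the DSC2 difference between settings (-0.6367 to 0.0199). Of 40 group levels 3 moved by more than 1 SD on total counts. Calls among desmosome genes in xenografts numbered 2, but 1 on total counts, 5 with no filter, and 4 in DESeq2 and in a fit of all 12 libraries; in cells they were 3, but 0 in that fit. Calls among all genes in xenografts were 894, but 2205 with no filter, 1733 in DESeq2, 455 with the replicate block and 3668 in the fit of 12 libraries, which gave 2 in cells against 2452. For the difference between settings they were 878, but 1662 with no filter, 1693 in DESeq2, 548 with the replicate block and 1503 in limma voom. Leaving out 1 library gave 1 to 5 desmosome genes and 180 to 4301 genes in xenografts, 3 and 1829 to 2191 in cells, and 2 to 5 and 280 to 4182 for the difference; the highest counts of xenografts and of the difference came without BBOX1 xenograft replicate 1. It gave 8 to 9 and 10174 to 11208 between empty-vector settings, and 7 to 8 and 9794 to 12447 between BBOX1 settings. The cause of these shifts was not tested. On total counts the split of higher and lower calls was 283 and 342 in xenografts, against 308 and 586, and 398 and 282 for the difference, against 326 and 552. The majority direction also turned in cells (1051 and 1348, against 1276 and 1176) and between empty-vector settings (5049 and 5901, against 5650 and 5273). The replicate block changed no call of a desmosome gene. Counts near 0 limit DSP in cells and DSC3 throughout.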

Other observations

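Regulators known to control epithelial junction genes were counted in the same fits. Of 15 such genes 7 were tested in xenografts and 0 passed with BBOX1 in edgeR (3 at an unadjusted p under 0.05, 0 in DESeq2), and 0 of 7 passed in cells (1 at an unadjusted p under 0.05, 0 in DESeq2). Among all tested genes 5.54% passed in edgeR in xenografts and 16.4% in cells, with no share given for unadjusted p or DESeq2. With 7 genes tested, 0 cannot be told from these shares. The grainyhead factor gene GRHL1 averaged 1.59 CPM in BBOX1 xenografts and 3.44 CPM in empty-vector xenografts (log2 -1.11, edgeR adjusted p = 0.0939). ESRP2, a splicing regulator of epithelial cells, had a difference of the BBOX1 effect between settings that passed, with 3.72 CPM in BBOX1 xenografts and 2.15 CPM in empty-vector xenografts, and 1.52 CPM in BBOX1 cells and 2.32 CPM in empty-vector cells. GRHL2, OVOL1, OVOL2 and ESRP1 averaged at most 0.0908 CPM in any group. Between settings 1 of 7 tested regulators was higher in xenografts and 3 lower with BBOX1. With the empty vector 2 of 7 were higher and 2 lower. Of all tested genes 68.2% passed in either direction with BBOX1 and 68.6% with the empty vector. With BBOX1, ESRP2 was higher in xenografts and GRHL1 lower (log2 1.33 and -0.86, edgeR adjusted p = 0.00199 and 0.0383). Repressor genes of the ZEB and SNAI families differed in direction. ZEB1 was lower in xenografts than in cells, at 12.2 against 25.3 CPM with BBOX1 (log2 -1.04, edgeR adjusted p = 6.20e-05) and at 13.1 against 27.0 CPM with the empty vector (log2 -1.03, adjusted p = 4.14e-06). SNAI1 was also lower with both vectors (log2 -1.06 with BBOX1 and -0.37 with the empty vector, edgeR adjusted p = 0.00524 and 0.0274). With the empty vector ZEB2 and SNAI2 were higher in xenografts (log2 0.30 and 0.35, edgeR adjusted p = 0.00402 and 0.0228; the SNAI2 call was lost on total counts), and with BBOX1 they had log2 values of 0.12 and 0.02 that did not pass.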
